A study of Macaca mulatta with 52 samples.

Results

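Genomic imprinting silences either the maternal or the paternal copy of a gene through DNA methylation laid down in the egg or sperm, and that methylation has to survive the wave of demethylation in the early embryo. ZFP57, a KRAB zinc finger protein, is known in mouse and human for binding methylated imprint control regions and bringing in TRIM28 and its partners, which keep the methylation in place. The genes followed beside it are imprinted in human or mouse: PLAGL1 encodes a zinc finger transcription factor, GRB10 an adaptor that dampens insulin and IGF receptor signalling, IGF2R the receptor that takes IGF2 to the lysosome, and MEST a protein with a hydrolase fold first described in mesoderm.

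The set was 7 genes, ZFP57, PLAGL1, GRB10, IGF2R, PEG10, MEST and PEG3, chosen by name with their stage course already known. Of these, 5 had a row of counts among 26309 identifiers, of which 15078 carried a gene name, and PEG10 and PEG3 are not analysed here. The identifiers were ENSMMUG00000045668 for ZFP57, ENSMMUG00000003750 for PLAGL1, ENSMMUG00000019992 for GRB10, ENSMMUG00000015658 for IGF2R and ENSMMUG00000009499 for MEST, and all 5 passed the filter on low counts in both kits. In the RefSeq annotation of assembly T2T-MMU8v2.0, ZFP57 lay between the MHC class I gene MAMU-F and MOG on chromosome 4, and PLAGL1 and IGF2R lay on the same chromosome. GRB10 and MEST lay on chromosome 3, where MEST overlapped COPG2, so that reads in the shared stretch could count for either gene. Because the stage course chose the genes, their differences between stages are given as values, with no test.

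Single rhesus monkey (Macaca mulatta) embryos were made by in vitro fertilization of oocytes matured in FSH- and hCG-stimulated females and were cultured in HECM-9 medium, with or without relaxin, which the labels do not assign to embryos. RNA was sequenced from libraries of 2 amplification kits: Ovation SoLo, with 4 8-cell embryos, 3 morulas and 6 expanded blastocysts, and SPIA (Ovation RNA-Seq System v2), with 9 8-cell embryos, 11 morulas, 2 delayed blastocysts and 14 expanded blastocysts. Library totals were 5.70 to 10.6 M counts in SoLo and 0.601 to 21.0 M in SPIA, M being 1000000. Levels are counts per 1000000 (CPM), with the 49 libraries put on 1 scale by the trimmed mean of M-values. The floor that a count of 0 allows, 3 counts, was 0.174 to 0.379 CPM in SoLo and 0.134 to 8.46 CPM in SPIA, and covers counting error only. Embryos are named by the code and number in their titles, such as 112815_01, and nothing says which codes share parents.

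Markers of 8-cell genome activation and trophectoderm mostly followed the labels in SoLo and overlapped between neighbouring stages in SPIA. The summed level of the 8-cell genome activation genes (3 of 4 listed had a row, ZSCAN4 and LEUTX among them) was 0 to 43.1 CPM in SoLo expanded blastocysts and 570 to 808 CPM in SoLo 8-cell embryos. The sum of 5 trophectoderm markers was 845 to 1367 CPM in SoLo expanded blastocysts and 18.0 to 38.2 CPM in SoLo 8-cell embryos. SPIA genome activation sums were 1.58 to 692 CPM in morulas and 227 to 701 CPM in 8-cell embryos. SPIA trophectoderm sums were 70.5 to 1049 CPM in expanded blastocysts and 7.62 to 516 CPM in morulas. Sums of pluripotent and of primitive endoderm markers overlapped between stages in both kits. In SPIA, 4 libraries correlated best with the mean of another stage: 8-cell 011516_02 and expanded blastocyst 111715_05, the shallowest library, with morulas, morula 022916_01 with expanded blastocysts, and morula 022916_02 with 8-cell embryos. In SoLo, morula 022916_01 was again nearest to expanded blastocysts (r = 0.963, against 0.887 with morulas). The SPIA library of 8-cell embryo 020816_09 stood apart, with a correlation of 0.647 to the 8-cell mean. Cumulus and granulosa markers, 12 of 17 listed genes having a row, summed to 2.03 to 12.2 CPM in SoLo morulas and 8.15 to 1414 CPM in SoLo 8-cell embryos, and to 1.69 to 43.4 CPM in SPIA morulas and 1.76 to 1967 CPM in SPIA 8-cell embryos. In bulk samples, fewer cells of a type and less RNA per cell cannot be told apart.

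ZFP57 was at or near 0 in every SoLo 8-cell embryo and present in every SoLo morula and expanded blastocyst. The SoLo 8-cell embryos had 0, 0, 0.0708 and 0.0836 CPM, which were 0, 0, 1 and 1 counts. The SoLo morulas had 17.5, 18.1 and 28.4 CPM, and the SoLo expanded blastocysts ran between 11.7 and 33.5 CPM with a median of 16.6 CPM. No 8-cell library overlapped a later one, and morulas and expanded blastocysts overlapped. Over all 14196 genes tested in SoLo, 23.8% had no overlap between morulas and 8-cell embryos. Between expanded blastocysts and morulas the share was 10.2%. Summed over libraries, 906 counts in morulas stood against 2 in 8-cell embryos, a scaled ratio of 642 with an exact counting interval of 177 to 5306. That interval covers counting error only, not the spread between embryos, and is no test of a rise already known. The same ratio in SPIA was 1.95, from 772 counts in morulas and 488 in 8-cell embryos.

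SPIA libraries gave ZFP57 the same order in most embryos but not in all. Of the 9 SPIA 8-cell embryos, 4 had no count and 3 had a single count, up to 0.0472 CPM, while embryo 011516_02 had 5.23 CPM (32 counts) and embryo 112815_01 had 50.1 CPM (453 counts). Of the 11 SPIA morulas, 021016_04 and 022916_02 had 0 CPM, and the others had 3.27 to 26.1 CPM, so that the morula median was 7.32 CPM. The groups overlapped at both ends: the level in 8-cell embryo 112815_01 was above that of every morula, and 2 morulas were at 0.

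The delayed blastocysts had 9.82 and 20.3 CPM of ZFP57 and the expanded blastocysts 3.49 to 26.0 CPM, with a median of 7.32 CPM, in SPIA. Every SPIA blastocyst library had ZFP57 counts, the smallest being 3 counts in 111715_05, which at its depth was 8.46 CPM. The fitted log2 fold change of morulas over 8-cell embryos was 0.55 ± 1.11 (SE) over all SPIA libraries, where embryo 112815_01 holds most of the 8-cell counts. Without that embryo it was 3.82 ± 1.21, and with the other kind of model, voom, which weights each library's log value, it was 3.70 ± 1.15. Without the 4 libraries nearest to another stage, 112815_01 being kept, it was 0.64 ± 1.17. With libraries under 12 M counts alone it was -0.45 ± 1.10, a change of sign.

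Within title code 020816, which has SPIA libraries of both stages, the 3 morulas had 7.40, 11.5 and 23.0 CPM of ZFP57 and the 5 8-cell embryos had 0 to 0.0472 CPM. These groups did not overlap, in a gene whose stage course was already known. The share of all genes without overlap within this code was not computed. The ZFP57-positive 8-cell embryo 112815_01 had 8-cell genome activation markers at 550 CPM, within the range of the other 8-cell embryos, and correlated best with the 8-cell mean (r = 0.872). Morula 022916_02, with no ZFP57 count and the deepest SPIA library (21.0 M counts), carried those markers at 692 CPM, the highest of any SPIA morula. Its trophectoderm sum, 516 CPM, was also the highest of any SPIA morula, against 1.57 to 46.2 CPM in SPIA 8-cell embryos.

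**Figure D1:**
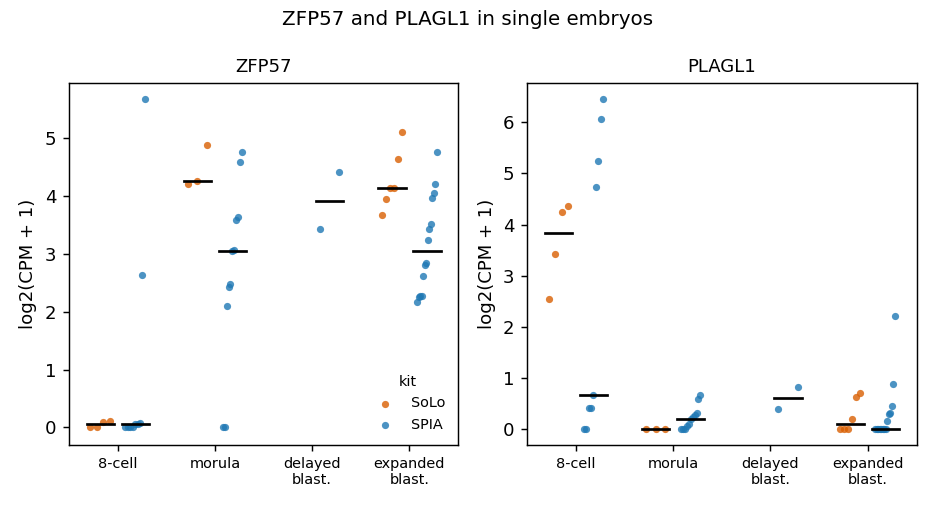
Levels of ZFP57 (left) and PLAGL1 (right) in each library as log2(CPM + 1), by stage, with SoLo libraries in orange and SPIA libraries in blue; each point is 1 embryo and the black line is the group's median. ZFP57 is near 0 in all 4 SoLo and 7 of 9 SPIA 8-cell embryos, and PLAGL1 is near 0 in every morula.

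PLAGL1 ran the other way: it was high in some 8-cell embryos and at or near 0 afterwards in both kits. The SoLo 8-cell embryos had 4.82, 9.73, 17.8 and 19.5 CPM, all 3 SoLo morulas had 0 CPM, and the 6 SoLo expanded blastocysts had 0, 0, 0, 0.157, 0.555 and 0.635 CPM. The 8-cell libraries did not overlap the later ones, where 23.8% of all SoLo genes had no overlap between morulas and 8-cell embryos. With 0 counts summed over the morulas against 743 over the 8-cell embryos, PLAGL1 was at least 175-fold lower in SoLo morulas, by the floor of 3 counts over the group.

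SPIA 8-cell embryos had PLAGL1 at widely separate levels. Embryos 020816_10, 020816_06, 112815_02 and 020816_07 had 25.5, 37.0, 65.4 and 86.2 CPM, and the other 5 had 0, 0, 0.327, 0.332 and 0.581 CPM. SPIA morulas had 0 to 0.592 CPM, the delayed blastocysts 0.322 and 0.770 CPM, and the expanded blastocysts 0 to 3.62 CPM, with 8 of 14 at 0. The log2 fold change of morulas over 8-cell embryos was -7.00 ± 1.40 (SE), and the low 8-cell embryos overlapped the morulas.

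Cumulus markers moved with PLAGL1 in part. Embryos 020816_06, 112815_02 and 020816_07, high in PLAGL1, had cumulus and granulosa sums of 353, 781 and 1414 CPM in SoLo and 475, 894 and 1967 CPM in SPIA. The SPIA sums were mainly VCAN (393, 779 and 1882 CPM), with 18.3, 12.8 and 11.3 CPM of INHA, the inhibin alpha subunit. In SoLo morulas, with sums of at most 12.2 CPM, AREG, AMHR2, FSHR and STAR were at 0. AMHR2 and CD44, of the same list, had no count in any SPIA 8-cell embryo, those 3 included. Embryo 020816_10, however, had 25.5 CPM of PLAGL1 with a sum of 5.10 CPM and no INHA count, and embryo 020816_08 had 4.82 CPM of PLAGL1 in SoLo with a sum of 8.15 CPM. Embryos 112815_01 and 011516_02 had sums of 310 and 270 CPM and at most 0.332 CPM of PLAGL1. Without the 3 embryos carrying both VCAN and INHA, the SPIA log2 fold change was -4.68 ± 1.42, and the part of these cells in the PLAGL1 level was not tested.

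By a fixed rule, the 5 named genes most like each regulator were those with the highest Pearson correlation of log2(CPM + 1) over the 36 SPIA libraries, among 10970 candidates. For ZFP57 these were PKP2, a desmosomal protein (r = 0.753), GDE1 (0.732), PATJ, a tight junction polarity protein (0.729), NLRP7 (0.706) and MYL6 (0.701). Over the 13 SoLo libraries the correlations were 0.897, 0.952, 0.953, 0.915 and 0.483 in that order. NLRP7, in which maternal mutations cause loss of maternal imprints in human moles, also stood in the list of imprint-control genes described further on. For PLAGL1 the closest were AREG, an EGF-like ligand of cumulus cells (0.865), HSD3B2, a steroidogenic enzyme (0.856), PTCHD1 (0.849), ANTXR1 (0.827) and KLK8 (0.811). The SoLo values were 0.900, 0.855, 0.857, 0.893 and 0.0633, so KLK8 did not follow PLAGL1 there. The points share stage, kit and library depth, and each correlation is a description.

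GRB10 was higher in morulas than in 8-cell embryos in both kits and stayed near the morula level in expanded blastocysts. The SoLo 8-cell embryos had 25.8, 46.97, 58.2 and 73.0 CPM, the morulas 124, 172 and 179 CPM, and the expanded blastocysts 132 to 174 CPM with a median of 166 CPM. All 3 morulas were above all 4 8-cell embryos, and the morulas and expanded blastocysts overlapped. Of all SoLo genes, 23.8% had no overlap between morulas and 8-cell embryos. The log2 fold change was 1.64 ± 0.27 (SE) for morulas over 8-cell embryos and 0.03 ± 0.25 for expanded blastocysts over morulas.

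In SPIA, GRB10 had 14.1 to 76.3 CPM in 8-cell embryos (median 25.3 CPM), 33.6 to 148 CPM in morulas (97.2 CPM), 40.3 and 77.8 CPM in delayed blastocysts and 45.7 to 511 CPM in expanded blastocysts (116 CPM). The highest 8-cell value, 76.3 CPM, belonged to the embryo that stood apart, 020816_09, and the 511 CPM to expanded blastocyst 112515_03, the next highest being 142 CPM. Fitted log2 fold changes were 1.49 ± 0.40 for morulas over 8-cell embryos, 1.76 ± 0.39 without 020816_09, and 0.56 ± 0.35 for expanded blastocysts over morulas, or 0.21 ± 0.32 without 112515_03. Embryos within a stage spread by an SD of 0.69 log2 units in SPIA 8-cell embryos and 0.69 in SPIA morulas, and by 0.15 in SoLo expanded blastocysts.

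In SoLo, IGF2R was higher at each later stage. SoLo 8-cell embryos had 24.7, 32.0, 33.2 and 41.7 CPM, SoLo morulas had 76.8, 116 and 341 CPM, and SoLo expanded blastocysts had 345 to 432 CPM (median 386 CPM). No group overlapped the next, as for 23.8% of all SoLo genes at the first step and 10.2% at the second. The 341 CPM belonged to morula 022916_01, the one nearest to expanded blastocysts by its whole profile. Morulas over 8-cell embryos gave a log2 fold change of 2.46 ± 0.37, and 1.55 ± 0.22 without that morula. For expanded blastocysts over morulas it was 1.11 ± 0.35, and 2.02 ± 0.25 without it.

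SPIA 8-cell embryos had IGF2R at 1.63, 1.93 and 2.55 CPM in 011516_02, 020816_07 and 112815_01 and at 36.3 to 79.3 CPM in the other 6. SPIA morulas ranged from 0.932 to 173 CPM (median 66.0 CPM), delayed blastocysts had 154 and 236 CPM, and expanded blastocysts had 56.4 to 429 CPM (262 CPM). The 56.4 CPM was in the shallowest library, 111715_05, with 20 counts. Fitted log2 fold changes were 1.04 ± 0.59 for morulas over 8-cell embryos and 1.85 ± 0.54 for expanded blastocysts over morulas. Morula 021016_04 had the lowest IGF2R of any morula, 4 counts, and also 0 CPM of ZFP57, while its GRB10 level, 148 CPM, was the highest of the SPIA morulas.

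MEST stood apart by stage in SoLo expanded blastocysts and in no SPIA group. SoLo 8-cell embryos had 5.35, 12.5, 12.6 and 16.4 CPM, morulas 11.2, 19.7 and 28.8 CPM, and expanded blastocysts 34.0 to 50.7 CPM (median 44.0 CPM). The 6 expanded blastocysts were above every other SoLo library, and the morulas overlapped the 8-cell embryos. Of all SoLo genes, 10.2% had no overlap between expanded blastocysts and morulas. The log2 fold change was 0.77 ± 0.38 for morulas over 8-cell embryos and 1.09 ± 0.37 for expanded blastocysts over morulas.

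In SPIA, MEST had 0.817 to 51.2 CPM in 8-cell embryos (median 17.8 CPM), 4.72 to 60.3 CPM in morulas (15.7 CPM), 19.8 and 27.4 CPM in delayed blastocysts and 5.43 to 57.0 CPM in expanded blastocysts (23.8 CPM). All groups overlapped. The log2 fold change was 0.10 ± 0.62 for morulas over 8-cell embryos, which turned to -0.38 ± 1.44 within title code 020816, and 0.30 ± 0.56 for expanded blastocysts over morulas.

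**Figure D2:**
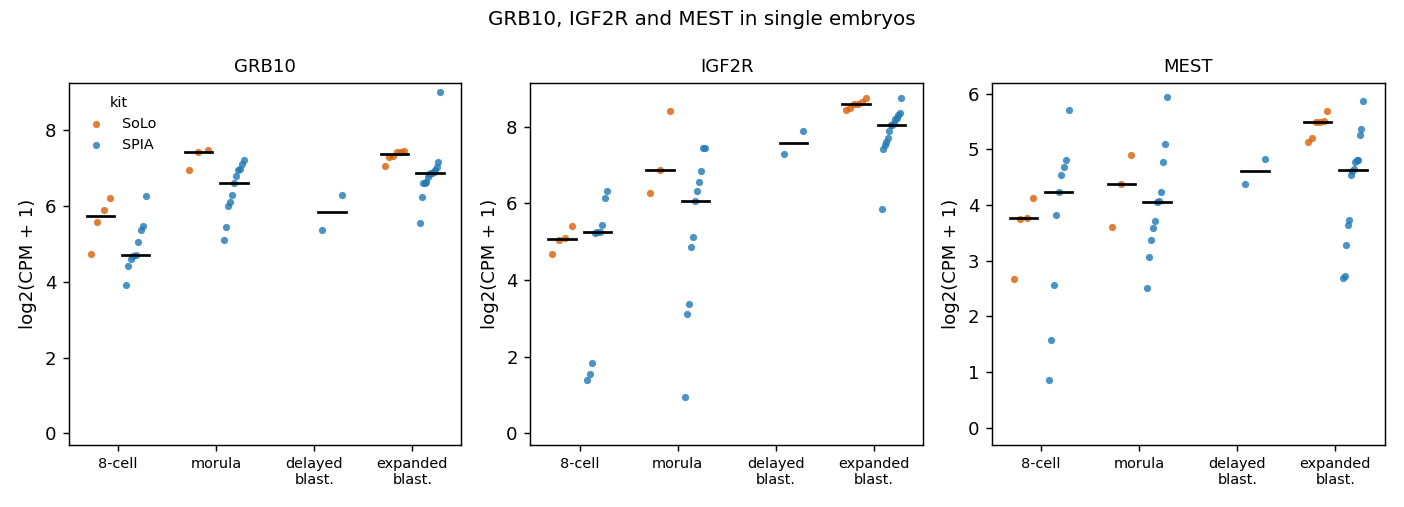
Levels of GRB10, IGF2R and MEST in each library as log2(CPM + 1), by stage, with SoLo libraries in orange and SPIA libraries in blue; each point is 1 embryo and the black line is the group's median. GRB10 is higher from the morula on, IGF2R is highest in expanded blastocysts, and MEST spreads over the same range at every stage in SPIA.

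The kit comparison, which did not choose the genes, used 11 embryos whose titles give the same stage, code and number in both kits. GRB10 was higher in SoLo than in SPIA in 10 of 11 embryos, the exception being 8-cell embryo 020816_07 with 25.8 CPM in SoLo and 40.4 CPM in SPIA. In the other 8-cell embryos GRB10 had 73.0 CPM in SoLo and 23.1 CPM in SPIA (020816_06), 46.97 CPM in SoLo and 43.1 CPM in SPIA (020816_08), and 58.2 CPM in SoLo and 24.5 CPM in SPIA (112815_02). The morulas had 179 CPM in SoLo and 110 CPM in SPIA (021016_02), 172 CPM in SoLo and 97.2 CPM in SPIA (021016_03), and 124 CPM in SoLo and 68.0 CPM in SPIA (022916_01). With stage in the model the SoLo minus SPIA log2 difference of GRB10 was 0.66 ± 0.21 (SE, 95% interval 0.25 to 1.06; edgeR adjusted p = 0.0248), in a comparison where 18.5% of 14724 genes passed. This fit did not pair the libraries of an embryo. Here and below a gene passed with a Benjamini-Hochberg adjusted p under 0.05 in edgeR's quasi-likelihood test. Leaving out embryo 020816_06 or 112815_02 gave adjusted p = 0.0696 and 0.0512, and the range over the other 8-cell embryos and morulas left out in turn was 0.00820 to 0.0495.

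The other genes did not pass between kits. PLAGL1 had a SoLo minus SPIA log2 difference of -2.28 ± 0.85 (95% interval -3.95 to -0.61; edgeR adjusted p = 0.0610). It was lower in SoLo in 7 embryos, equal in 2 and higher in 2, of which 8-cell embryo 020816_08 had 68 counts (4.82 CPM) in SoLo and 0 counts in SPIA. Without that embryo the adjusted p was 0.0262, and with DESeq2 it was 0.0364. With the embryo as a block, which pairs the libraries, the PLAGL1 log2 difference was -1.55. The differences were 0.34 ± 0.32 for IGF2R (95% interval -0.29 to 0.97; adjusted p = 0.518), 0.25 ± 0.52 for ZFP57 (-0.76 to 1.26; 0.791) and 0.07 ± 0.39 for MEST (-0.70 to 0.84; 0.931). The values depend on the scaling. Without it SoLo levels are higher by a mean of 0.72 log2 units, and GRB10 (1.37 ± 0.24, adjusted p = 6.9e-05) and IGF2R (1.10 ± 0.31, adjusted p = 0.00996) pass. Levels within a kit move with it too: GRB10 averaged 93.0 CPM in SPIA morulas and 33.3 CPM in SPIA 8-cell embryos with scaling, and 72.7 CPM in morulas and 31.6 CPM in 8-cell embryos without it.

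Single embryos could differ between kits by far more than these averages. IGF2R in 8-cell embryo 020816_07 had 24.7 CPM (416 counts) in SoLo and 1.93 CPM (42 counts) in SPIA. MEST had 16.4 CPM in SoLo and 0.817 CPM in SPIA in embryo 020816_06, and 5.35 CPM in SoLo and 27.2 CPM in SPIA in embryo 020816_07. ZFP57 agreed on absence: the 4 8-cell embryos had at most 1 count in either kit. In morula 021016_03 it had 18.1 CPM in SoLo and 3.27 CPM in SPIA, the widest gap of its 11 pairs. For none of the 5 genes did the kit difference vary with stage past the threshold (edgeR F test, adjusted p between 0.972 and 1), where 0% of all genes passed, with 1051 at an unadjusted p under 0.05, 45 passing with DESeq2 and 3 with the embryo as a block.

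**Figure D3:**
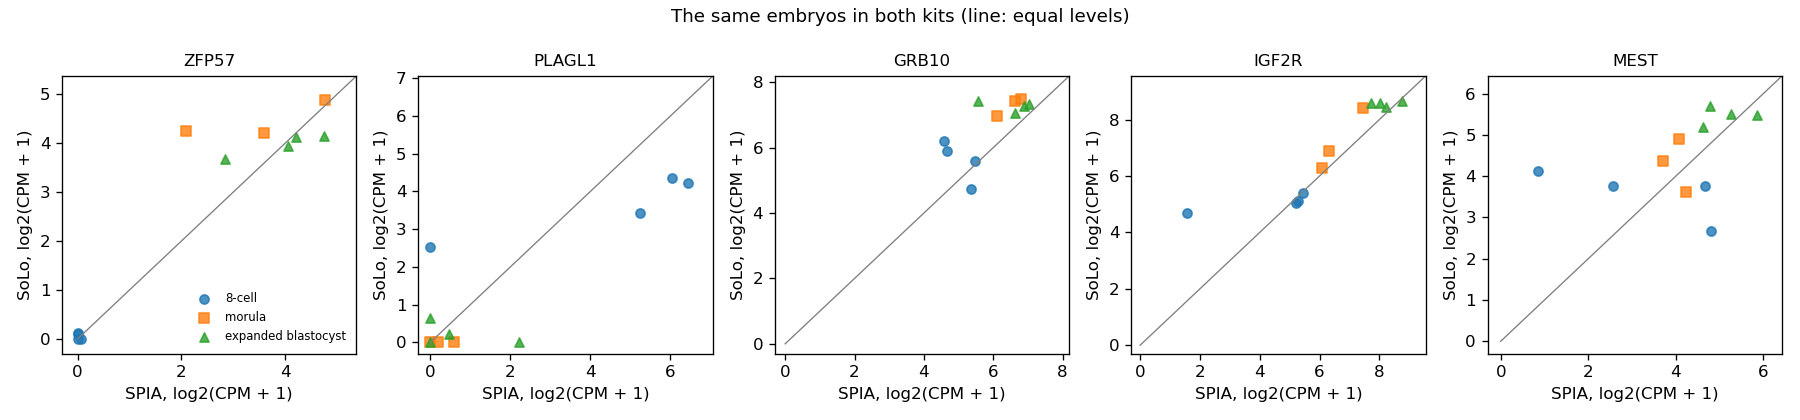
Level of each gene in the SoLo library (vertical axis) against the SPIA library (horizontal axis) of the same embryo, both as log2(CPM + 1); 11 embryos, marked by stage, with a grey line of equal levels. GRB10 lies above the line in 10 of 11 embryos, and single 8-cell embryos lie far from it for IGF2R, MEST and PLAGL1.

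Delayed blastocysts, which are 2 SPIA embryos of title code 112515, were set against the 14 expanded blastocysts. GRB10 had 40.3 and 77.8 CPM in the delayed embryos and 45.7 to 511 CPM in the expanded ones, a log2 difference of -1.20 ± 0.72 (95% interval -2.62 to 0.22), or -0.84 ± 0.64 without 112515_03. The differences were 0.64 ± 1.75 for ZFP57, 0.36 ± 1.93 for PLAGL1, -0.38 ± 1.00 for IGF2R and -0.01 ± 1.04 for MEST. Both delayed embryos lay within the expanded range for ZFP57, PLAGL1, IGF2R and MEST, and the edgeR adjusted p was 1 for all 5 genes. Over all genes 0% passed, with 196 at an unadjusted p under 0.05, 22 passing with DESeq2 and 1 with voom. Within title code 112515 the GRB10 difference was -2.29, where the expanded embryos are 112515_03 with 511 CPM and 112515_04 with 75.0 CPM.

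Other imprinted genes, 51 listed and 38 with a row, showed no common direction. Between SPIA morulas and 8-cell embryos 10 of 31 tested passed, against 19.4% of all genes, with 4 higher and 6 lower, against 9.06% and 10.3%, and the list's median log2 fold change was -0.19, against -0.14 over all genes. In SoLo 6 of 26 passed, against 16.7% of all genes, with 4 higher and 2 lower, against 9.78% and 6.92%, with a median of -0.39, against -0.06. NLRP2, an NLR family member of the oocyte and embryo, rose in morulas in both kits: it had 758 to 2162 CPM in SoLo morulas, against 185 to 249 CPM in SoLo 8-cell embryos (log2 fold change 2.68 ± 0.27, edgeR adjusted p = 1.02e-05), and the SPIA fold change was 1.82 ± 0.33 (adjusted p = 0.000223). GNAS, the stimulatory G protein alpha subunit, rose in SPIA by 0.87 ± 0.32 (edgeR adjusted p = 0.0483), a call lost on leaving out any 1 of 12 of the 20 libraries (highest adjusted p = 0.0906, without morula 022916_01), and the SoLo libraries gave 78.2 to 258 CPM in morulas and 33.9 to 121 CPM in 8-cell embryos.

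Genes beside the members behaved in separate ways. COPG2, which overlaps MEST and encodes a coat protein subunit, rose in SoLo morulas to 33.3 to 53.3 CPM, against 8.29 to 26.9 CPM in 8-cell embryos (log2 fold change 1.17 ± 0.37, edgeR adjusted p = 0.0372). The call was lost without 8-cell embryo 020816_06 or 020816_08 or morula 021016_02 or 022916_01 (highest adjusted p = 0.147). In SPIA COPG2 overlapped over 1.17 to 133 CPM in morulas and 0 to 85.9 CPM in 8-cell embryos, where its fold change was 0.43 ± 0.73 (adjusted p = 0.726). PPP1R9A, a neighbour of PEG10, rose in SoLo by 1.49 ± 0.31 (edgeR adjusted p = 0.00345). SGCE, on the other side of PEG10, passed as lower in SPIA, with 1 count over the morulas and 100 over the 8-cell embryos, but nearly all of its signal was the 7.28 CPM of 8-cell embryo 020816_06. SLC22A3, of the IGF2R cluster in mouse, had at most 2 counts in any group.

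IGF2, the ligand that IGF2R removes, fell in SPIA morulas. It had 0 to 10.2 CPM in SPIA morulas (median 0.409 CPM) and 0 to 152 CPM in SPIA 8-cell embryos (23.7 CPM), a log2 fold change of -4.42 ± 1.29 (edgeR adjusted p = 0.0143). The 3 embryos with VCAN and INHA were among those with IGF2, at 15.7, 46.0 and 152 CPM. Without them the fold change was -3.86 ± 1.37 (adjusted p = 0.0430). In SoLo IGF2 had 0.521, 1.19 and 1.21 CPM in morulas and 0.213, 11.03, 33.1 and 53.7 CPM in 8-cell embryos, and did not pass (-4.64 ± 2.14, adjusted p = 0.153). The lowest SoLo 8-cell value was in 020816_08, the one embryo without those markers, and the part of cumulus cells in the IGF2 level was not tested.

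DLK1, a paternally expressed transmembrane protein, was lower in morulas in both kits, and its highest 8-cell levels were in embryos with VCAN and INHA. SoLo morulas had 0 CPM and SoLo 8-cell embryos 0.213, 0.754, 9.61 and 30.7 CPM. SPIA morulas had at most 2 counts each, 6 in all, and of the SPIA 8-cell embryos 112815_02 and 020816_07 had 8.02 and 18.5 CPM and the others at most 0.314 CPM. CDKN1C, a cell cycle inhibitor, had fold changes of opposite sign in the kits. It passed as lower in SoLo, with 2 counts over the morulas and 285 over the 8-cell embryos, a call lost on leaving out any 1 of 6 of the 7 libraries (highest edgeR adjusted p = 0.118). In SPIA it had 86 counts over the morulas, 84 of them in 020816_04, and 14 over the 8-cell embryos, and did not pass (edgeR adjusted p = 0.507).

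RTL1, a retrotransposon-derived gene beside DLK1, had 0 counts in every 8-cell embryo of either kit. It had 13.3 CPM in SoLo morula 022916_01 and 0 CPM in the other 2 SoLo morulas, and 3.28 to 10.4 CPM in SoLo expanded blastocysts. In SPIA it had 7.47 CPM in the same morula and at most 0.423 CPM in the others, 4.36 and 4.83 CPM in delayed blastocysts and 0 to 3.88 CPM in expanded blastocysts, 7 of 14 being at 0. Expanded blastocyst 112415_03 had 132 RTL1 counts in SoLo and 0 in SPIA. RTL1 passed between morulas and 8-cell embryos in both kits, and in neither without morula 022916_01 (edgeR adjusted p = 1 in SoLo and 0.0986 in SPIA). TP73, a transcription factor of the p53 family, passed as higher in SPIA on 54 counts over the morulas and 1 over the 8-cell embryos, but 8 of 11 SPIA morulas had 0 counts, and so did all SoLo morulas and 8-cell embryos.

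KCNQ1, FAM50B and INPP5F also fell in SPIA morulas, by 4.65, 4.51 and 1.47 on the log2 scale (edgeR adjusted p = 0.0191, 0.0394 and 0.0299). Single 8-cell libraries held much of each difference. Without 8-cell embryo 020816_09 the KCNQ1 fold change was -0.39 (adjusted p = 0.863) and the INPP5F fold change -0.49 (adjusted p = 0.464), while FAM50B had 20.1 CPM in 8-cell embryo 020816_08 and at most 1.23 CPM in the other 8-cell embryos. Without 020816_08 FAM50B did not pass (edgeR adjusted p = 0.638), and 9 morulas left out singly also ended its call.

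**Figure D4:**
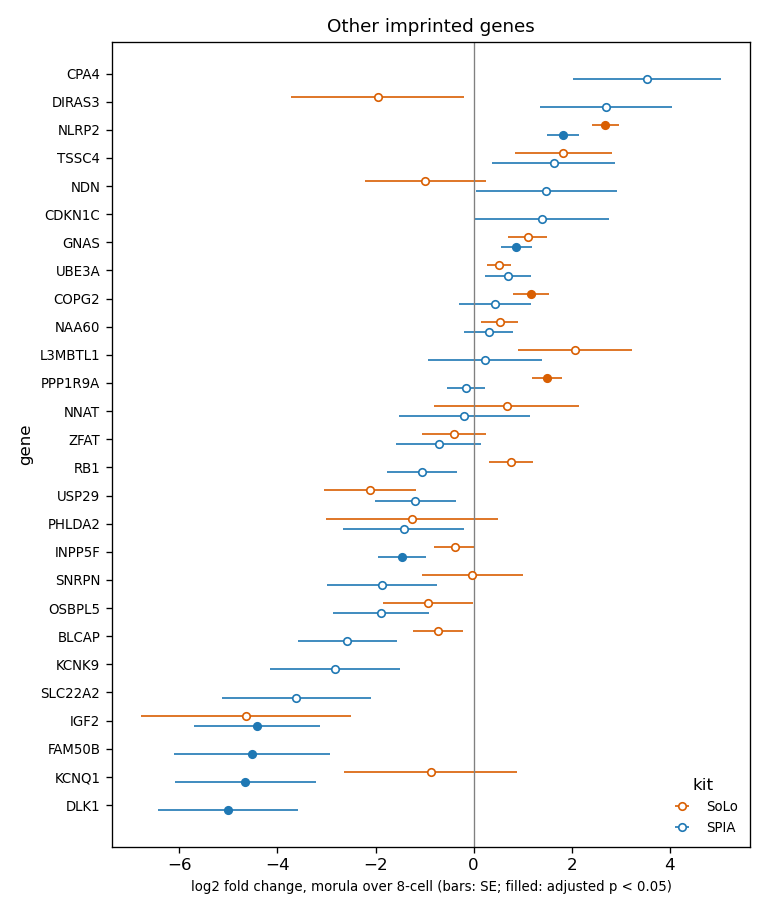
Log2 fold change of morulas over 8-cell embryos for other imprinted genes (rows), with SoLo in orange above SPIA in blue; bars are standard errors and filled points have an edgeR adjusted p under 0.05. Genes with 3 or fewer counts over either group of a kit are not drawn for that kit; NLRP2 is filled in both kits, and IGF2 lies near -4.42 in SPIA.

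From morula to expanded blastocyst, 6 of 31 other imprinted genes passed in SPIA, against 14.7% of all genes, with OSBPL5 (log2 fold change 3.38 ± 0.98), NLRP2 and GNAS higher and USP29 (-3.30 ± 0.79), NAA60 (-2.43 ± 0.46) and PHLDA2 lower. The PHLDA2 call was lost on leaving out any 1 of 14 of the 25 libraries (highest edgeR adjusted p = 0.134, without morula 022916_02). OSBPL5, an oxysterol-binding protein family member, had 3.10 to 56.1 CPM in expanded blastocysts and 0 to 14.4 CPM in morulas (edgeR adjusted p = 0.0171). NAA60, an acetyltransferase, was lower in expanded blastocysts in SoLo as well, with 16.8 to 33.8 CPM against 33.4 to 112 CPM in morulas (log2 fold change -1.70 ± 0.34, edgeR adjusted p = 0.0232), and was the 1 of 26 to pass there, against 1.14%. That call was lost on leaving out any 1 of 6 of the 9 SoLo libraries (highest edgeR adjusted p = 0.227, without morula 021016_03). Without SoLo morula 022916_01, 6 passed there in place of 1 (NAA60, NLRP2, GNAS, INPP5F, OSBPL5 and RTL1), while the share over all genes went up as well, to 9.77%.

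Genes of an imprint-control list, 32 listed and 30 with a row, moved in both directions. The list holds the TET oxidases and genes of the oocyte's subcortical complex as well as genes that set or guard imprints. TRIM28, the corepressor that ZFP57 recruits, had 265 to 287 CPM in SoLo morulas and 152 to 313 CPM in SoLo 8-cell embryos, a log2 fold change of 0.28 ± 0.23 (edgeR adjusted p = 0.425). SETDB1, the histone methyltransferase of that complex, had a SoLo fold change of 0.36 ± 0.29 (adjusted p = 0.419) and ZNF445, a second zinc finger protein of imprint control, one of 0.59 ± 0.40 (adjusted p = 0.324). None of the 3 passed in SPIA either, at 0.35 ± 0.56, -0.66 ± 0.48 and -1.23 ± 0.57 (edgeR adjusted p = 0.706, 0.350 and 0.119). TRIM28 had 152 to 313 CPM in the SoLo 8-cell libraries in which ZFP57 had at most 1 count.

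DNMT1, the maintenance methyltransferase, and its partner UHRF1 fell. DNMT1 had 50.8, 80.9 and 186 CPM in SoLo morulas, against 614, 876, 1754 and 2322 CPM in SoLo 8-cell embryos (log2 fold change -3.71 ± 0.69, edgeR adjusted p = 0.00384). In SPIA its fold change was -3.89 ± 0.79 (adjusted p = 0.00161), and -2.61 ± 0.67 without embryo 020816_09, which had 56512 CPM of DNMT1. UHRF1, which guides DNMT1 to half-methylated DNA, had 25.4, 37.7 and 40.7 CPM in SoLo morulas, against 150 to 388 CPM in SoLo 8-cell embryos (-2.81 ± 0.36, adjusted p = 7.22e-05), and the SPIA fold change was -3.90 ± 0.74 (adjusted p = 0.000734). PADI6, of the oocyte's subcortical complex, fell in both kits, with log2 fold changes of -2.75 ± 0.77 in SoLo and -3.11 ± 1.01 in SPIA (edgeR adjusted p = 0.0215 and 0.0250). The PADI6 call was lost in SoLo without morula 021016_02 or 021016_03 (highest adjusted p = 0.0591) and in SPIA without 8-cell embryo 020816_06 (adjusted p = 0.0795). NLRP5, of the same list, passed as lower in SoLo morulas (log2 fold change -3.20, edgeR adjusted p = 0.0173) and did not pass in SPIA. The NLRP5 call was lost without morula 021016_02 or 021016_03 (highest adjusted p = 0.0641).

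DNMT3L, TET1 and NLRP7 rose in morulas of both kits. DNMT3L, a cofactor of the de novo methyltransferases, rose by 2.61 ± 0.27 in SoLo morulas and 2.26 ± 0.78 in SPIA morulas (edgeR adjusted p = 1.1e-05 and 0.0360), TET1, a methylcytosine oxidase, by 3.02 ± 0.34 and 1.94 ± 0.48 (2.78e-05 and 0.00498), and NLRP7 by 3.34 ± 0.61 and 2.46 ± 0.40 (0.00340 and 7.4e-05). The SPIA call of DNMT3L was lost on leaving out any 1 of 8 of the 20 libraries (highest adjusted p = 0.0761, without morula 022416_03). Of the same families, TET3, TET2 and DNMT3A did not pass in either kit. TET3 had log2 fold changes of -0.60 ± 0.38 in SoLo and -1.50 ± 0.58 in SPIA (edgeR adjusted p = 0.284 and 0.0613), TET2 of 2.66 ± 0.85 and 1.41 ± 0.57 (0.0544 and 0.0729), and DNMT3A of 1.70 ± 0.66 and 0.30 ± 0.48 (0.0957 and 0.715). EHMT1, of the same list, passed as higher in SPIA morulas (log2 fold change 2.66, edgeR adjusted p = 0.0410) and did not pass in SoLo. The EHMT1 call was lost on leaving out any 1 of 8 of the 20 SPIA libraries. Without morula 022416_02 its fold change was -0.06 (edgeR adjusted p = 0.971).

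DNMT3B, a de novo methyltransferase, had 38.5, 144 and 794 CPM in SoLo morulas, against 0.891 to 14.3 CPM in SoLo 8-cell embryos (log2 fold change 5.27 ± 1.00, edgeR adjusted p = 0.00491), or 3.40 without morula 022916_01, which had the 794 CPM. In SPIA it overlapped over 15.3 to 679 CPM in morulas and 11.5 to 378 CPM in 8-cell embryos and did not pass (1.23 ± 0.56, adjusted p = 0.117). From SPIA morulas to expanded blastocysts DNMT3B rose by 2.54 ± 0.53 (edgeR adjusted p = 0.00208), and in SoLo that difference was 1.25 ± 0.86 (adjusted p = 0.515), or 3.12 ± 0.84 without morula 022916_01 (adjusted p = 0.0414). In all, 10 of 30 passed in SoLo and 7 of 30 in SPIA between morulas and 8-cell embryos, 5 and 4 of them higher, against 16.7% and 19.4% of all genes, with list medians of 0.22 and -0.19. Between expanded blastocysts and morulas 2 passed in SoLo (KDM1A and DNMT3L, both higher) and 4 in SPIA (TET2, DNMT3B and DNMT3A higher, DNMT1 lower), against 1.14% and 14.7%. Both SoLo calls were lost on leaving out any 1 of 6 of the 9 libraries.

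**Figure D5:**
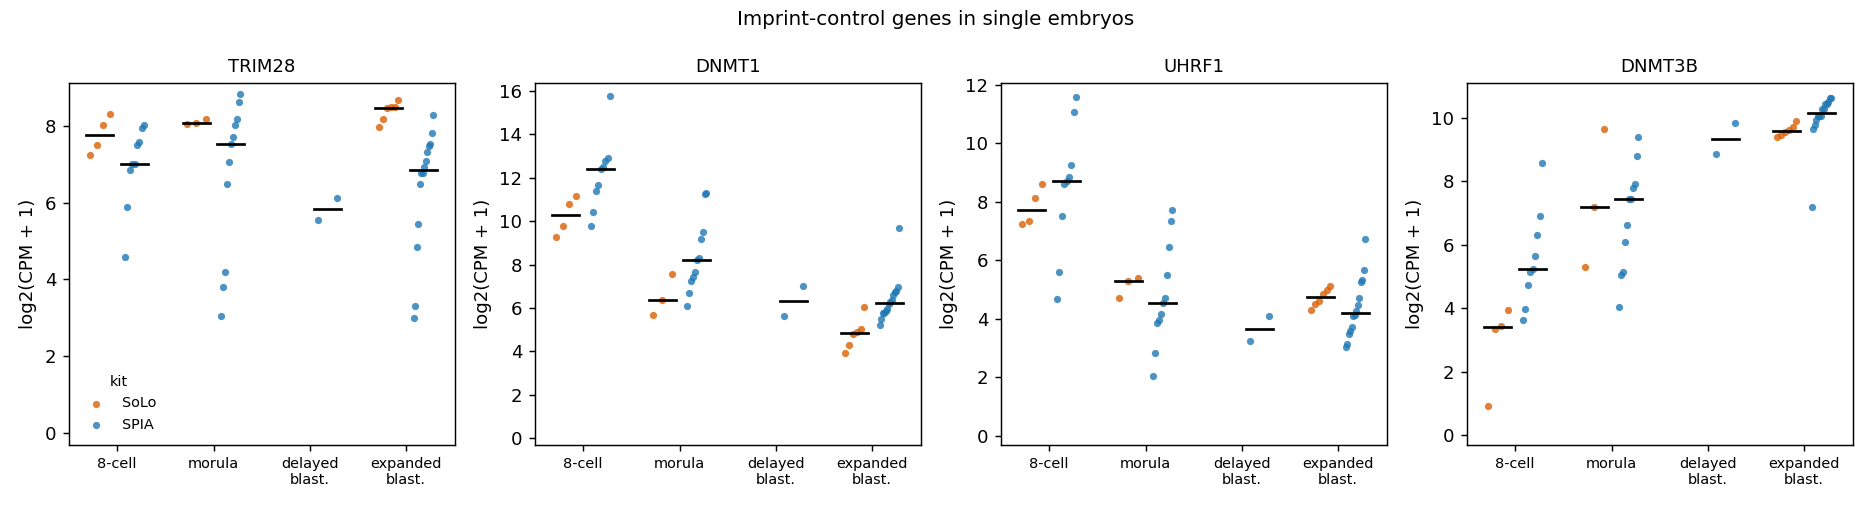
Levels of TRIM28, DNMT1, UHRF1 and DNMT3B in each library as log2(CPM + 1), by stage, with SoLo libraries in orange and SPIA libraries in blue; each point is 1 embryo and the black line is the group's median. DNMT1 and UHRF1 are highest in 8-cell embryos and DNMT3B in expanded blastocysts, while TRIM28 overlaps between stages.

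Partners of GRB10 and IGF2R, 12 genes of the IGF axis, gave 2 that passed in SoLo and 4 in SPIA between morulas and 8-cell embryos, against 16.7% and 19.4% of all genes. GRB7, a relative of GRB10 in the same adaptor family, was lower in both kits, by 2.03 and 4.07 on the log2 scale in SoLo and SPIA (edgeR adjusted p = 0.0267 and 0.00210). It did not pass in SPIA without embryo 020816_09 (-2.10 ± 0.85, adjusted p = 0.0792), or in SoLo without 8-cell embryo 020816_07 or morula 021016_02 or 021016_03 (highest adjusted p = 0.0807). IGF2BP1, an IGF2 mRNA-binding protein, rose in SoLo by 1.18 ± 0.26 (edgeR adjusted p = 0.00570). IRS1 and IRS2, the insulin receptor substrates, and IGF2BP3 fell in SPIA by 4.13, 4.83 and 2.97 on the log2 scale (edgeR adjusted p = 0.0157, 0.0256 and 0.000356). Single 8-cell libraries held much of this: IRS2 had 394 CPM in 011516_02 and a median of 2.05 CPM, and without that embryo did not pass (-2.97 ± 1.48, edgeR adjusted p = 0.148). IGF2BP3 had 4082 CPM in 020816_09 and a median of 254 CPM, and without it the fold change was -1.50 ± 0.41 (edgeR adjusted p = 0.0105). IRS1 had 65.5 CPM in 020816_10, and without it the fold change was -3.37 ± 1.23 (edgeR adjusted p = 0.0469).

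Between SPIA expanded blastocysts and morulas 2 of the 12 passed, against 14.7% of all genes. IGF1, a ligand of the IGF receptor, had 0 to 30.4 CPM in expanded blastocysts (median 14.1 CPM) and 0 to 3.86 CPM in morulas (0 CPM), and rose by 5.18 ± 1.46 (edgeR adjusted p = 0.0137). GRB14, the third adaptor of the family, fell by 4.66 on the log2 scale (edgeR adjusted p = 0.00928), but its medians were 0.217 CPM in expanded blastocysts and 0.409 CPM in morulas. Morula 022916_03 alone had 105 CPM of GRB14, and without it the gene did not pass (-2.36 ± 1.09, edgeR adjusted p = 0.151). In SoLo none of the 12 passed there, against 1.14% of all genes. The list's median between morulas and 8-cell embryos was -0.81 in SoLo and -1.35 in SPIA, against -0.06 and -0.14 over all genes.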

How the data were processed

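The authors deposited raw gene counts, whole numbers per Ensembl gene identifier and library, which are not normalized. HISAT2 and DESeq2 are named in the submitters' processing notes without versions. The sources used here do not give the counter, annotation, strand setting or genome build. Of 52 samples, 49 have a matching column (47 by title, 2 by group, the pair of SoLo libraries of code 111215), and 3 columns that match no title were not used.

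Counts were tested with edgeR 4.0.16 (limma 3.58.1, R 4.3.3): default low-count filter, TMM scaling within each fit, robust quasi-likelihood, Benjamini-Hochberg adjustment over all genes tested. The 4 SPIA groups shared 1 fit and the 3 SoLo groups another. CPM printed come from 1 TMM scaling of all 49 libraries, so a printed level and a fold change use different scalings. DESeq2 1.42.0 and voom were alternatives; figures used matplotlib. The code was tested on simulated counts. P-values between stages measure the spread between these embryos, and shared parents are not stated. In the main kit fit they measure the spread between libraries that were not paired by embryo.

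Title numbers were taken to pair the kits: same-named libraries had deviations from their group means with a median correlation of 0.222, above 0.1 in 10 of 11 pairs, the exception being expanded blastocyst 111715_02 (-0.02). With the embryo as replicate block, members that passed between kits numbered 1, as without it. Genes were named by rule: the members, up to 6 passing genes of largest change per list and contrast, genes beside or partnered with a member, and the 5 most alike; other named genes were chosen after their values were seen. The members and lists were chosen with earlier results of these data known.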

Additional observations from a re-analysis of the deposited data

Results flagged for a closer look

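Among the groups examined, 1 result stood apart from its group. ZFP57 in the SPIA library of 8-cell embryo 112815_01 was 50.1 CPM, far above the 5.23 CPM of the next highest of the 9 SPIA 8-cell embryos. Chance flags about 1 in 20 groups, and 15 groups of 4 to 10 libraries were examined, on the log2(CPM + 1) scale. The SPIA morulas and SPIA expanded blastocysts, with 11 and 14 libraries, were not examined in this way. No SoLo library of this embryo was analysed here.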

How the results depend on the processing

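Among results given as counts of passing genes, 183 alternative values stayed within 1.5 times the first value and 24 did not. Other imprinted genes between SPIA morulas and 8-cell embryos, 10 as reported, numbered 4 with the stricter filter (16.5% of all genes passing), 4 with DESeq2 (19.2%), 2 with only the compared groups fitted (4.78%), 2 with voom without a block (11.6%), 4 with voom and title code as a random block (12.8%), 0 within title code 020816, where 4 of 11244 genes passed, and 3 in libraries under 12 M counts (13.2%). Leaving out each library in turn, chosen after seeing the data except for those planned, gave 8 to 11. In SoLo, 6 became 3 to 6 with 1 embryo left out. Between expanded blastocysts and morulas, 6 became 5 to 9 in SPIA, and in SoLo 1 became 0 to 6, and 2 with DESeq2 (4.78% of all genes). Imprint-control genes between SPIA morulas and 8-cell embryos, 7, numbered 3 with only the compared groups fitted, 0 within title code 020816 and 5 to 10 with 1 library left out, and between SPIA expanded blastocysts and morulas 4 became 4 to 6. Members that passed between kits, 1, numbered 2 with DESeq2, 2 with no scaling, which was chosen after seeing the data, and 0 to 2 with 1 8-cell embryo or morula left out; with embryo as replicate block they numbered 1, and none varied by stage. The cause was not tested. Leaving out a library, a code or a marker-bearing embryo also fits fewer samples. Fold changes of GRB10 and IGF2R kept their sign between morulas and 8-cell embryos under all 13 alternatives in SoLo and 31 in SPIA, and in SPIA those of ZFP57 and MEST changed sign in 2 and 7 of 31. These fits reuse the same embryos, and the genes were chosen with their stage course known, so a kept sign is no separate evidence. The stricter filter and the compared-groups fit gave no SPIA value for PLAGL1. A SPIA total of 0.601 M counts (M, 1000000) limits any statement about low genes in single libraries.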
